A study of Mus musculus with 4 samples.

Results

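The genes described are 33 that make or regulate the making of cholesterol and fatty acids: 16 enzymes of the sterol branch, 4 genes of sterol sensing, and 13 genes of the fatty acid branch. The list was drawn up by pathway with earlier results of these data known, and each gene was found by its symbol in the annotation of the array's probe sets. All 33 had exactly 1 probe set, so none was left without a measurement, among 19505 genes named on the array. The array was the Clariom S Mouse design, read in Neuro-2a cells, a line from a mouse neuroblastoma whose labels give the strain as Albino strain A. Deltamethrin-treated cells (2 arrays) received 30 µM of this pyrethroid insecticide for 24 h, and vehicle-treated cells (2 arrays) received the solvent, 0.1% DMSO, for the same time. A single line, dose and time were studied, and no label places the arrays of a group in separate cultures. The p-values therefore measure the spread between these arrays, which may be technical, and fewer cells of a kind and less RNA per cell cannot be told apart.

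Animal cells build cholesterol from acetyl-CoA through mevalonate, the isoprenoid farnesyl diphosphate, squalene and lanosterol. They build fatty acids from the same acetyl-CoA through malonyl-CoA, and then lengthen and desaturate the chains. SREBP transcription factors switch on both branches. They are held in the endoplasmic reticulum by SCAP and the INSIG proteins while sterols are plentiful, and are released and cut when sterols run low. In neurons and neuroblastoma cells these pathways supply membrane for growth.

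None of the 33 genes passed limma's test over all probe sets (adjusted p = 0.289 to 0.988, Benjamini-Hochberg), where 0.432% of all probe sets did (0.356% higher, 0.0766% lower). The estimates leaned downward. The log2 fold change, deltamethrin minus vehicle, was below 0 for 22 genes and above 0 for 11, with a median of -0.14, against -0.02 over all probe sets. At an unadjusted p below 0.05 there were 10 genes (30.3%, against 13.7% of all probe sets and 18.9% of those with a mean in the higher group at or above the median level of all probe sets, called bright here and otherwise dim). Of these 10, 8 were lower in deltamethrin (24.2% of the 33, against 6.84% of all and 8.49% of bright probe sets) and 2 were higher (6.06%, against 6.83% and 10.4%). Both deltamethrin arrays lay below both vehicle arrays for 15 genes (45.5%, against 23.5% of all probe sets) and above them for 5 (15.2%, against 20.3%), while 43.9% of all probe sets had groups that did not overlap. The sizes were small: for 30 of the 33 genes the 95% interval of the estimate, not adjusted for the number of genes, stayed within a 2-fold change either way. The other 3 were Mvk, Acaca and Fasn, whose intervals reached below a 2-fold decrease.

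**Figure D1:**
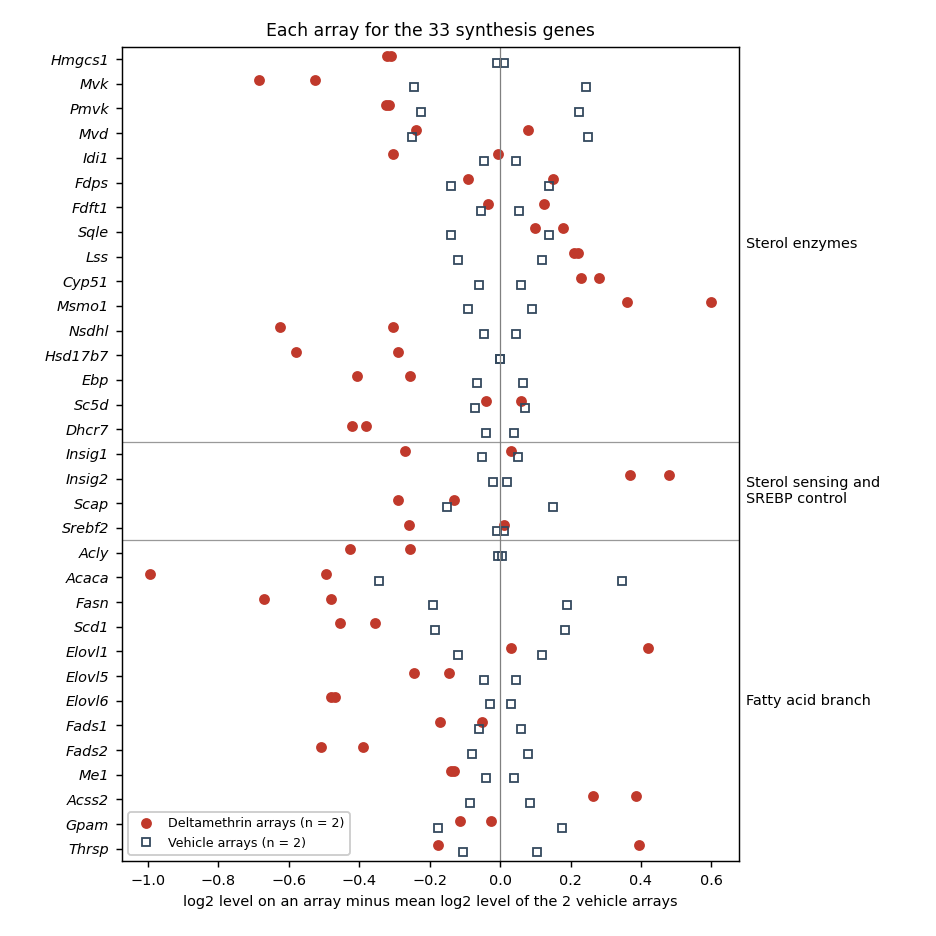
Each row is a gene, in pathway order within its group. Points give the log2 level on each deltamethrin array (filled circles) and vehicle array (open squares), minus the mean of the 2 vehicle arrays. Both deltamethrin arrays lie left of both vehicle arrays for 15 genes and right of them for 5.

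The control regions of 4 of these genes are printed to show, base by base, where the searched letters sit. Hmgcs1 is the earliest of the 16 sterol enzymes in the pathway, and Fasn is the fatty acid synthase. Msmo1 is the sterol enzyme with the highest estimate, and Nsdhl has one of the lowest. Each is the 200 bases before the annotated start, from RefSeq (GRCm38.p6), written 5′ to 3′ on the gene's own strand. Capitals mark matches, on either strand, to the core of the classic sterol regulatory element (TCACCCCAC), the GC box (GGGCGG), the letters CCAAT of the box of that name, and the E-box (CACGTG). Of the 4 stretches only that of Hmgcs1 holds the sterol core, that of Fasn holds CCAAT letters alone, and none holds an E-box. The factors NF-Y and Sp1, which bind the CCAAT and GC boxes, act beside SREBP on many of its targets.
Hmgcs1, chr13:119690151-119690350, plus strand: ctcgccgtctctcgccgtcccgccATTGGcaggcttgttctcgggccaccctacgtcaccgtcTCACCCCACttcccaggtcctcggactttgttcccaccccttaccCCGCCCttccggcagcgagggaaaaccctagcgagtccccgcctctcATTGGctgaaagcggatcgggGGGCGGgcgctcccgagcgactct
Msmo1, chr8:64733579-64733778, minus strand: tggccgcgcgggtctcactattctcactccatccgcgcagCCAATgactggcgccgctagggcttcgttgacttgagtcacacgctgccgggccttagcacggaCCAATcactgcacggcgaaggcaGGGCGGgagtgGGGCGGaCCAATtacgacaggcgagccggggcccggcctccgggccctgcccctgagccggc
Nsdhl, chrX:72918321-72918520, plus strand: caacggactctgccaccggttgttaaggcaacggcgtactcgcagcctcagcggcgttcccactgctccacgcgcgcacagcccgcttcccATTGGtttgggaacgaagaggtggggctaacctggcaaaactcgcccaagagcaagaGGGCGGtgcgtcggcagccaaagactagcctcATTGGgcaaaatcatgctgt
Fasn, chr11:120824548-120824747, minus strand: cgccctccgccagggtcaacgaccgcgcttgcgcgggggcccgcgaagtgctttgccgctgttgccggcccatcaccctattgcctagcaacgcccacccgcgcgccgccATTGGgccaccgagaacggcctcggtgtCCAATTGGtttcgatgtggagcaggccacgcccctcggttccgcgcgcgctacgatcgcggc

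Promoter windows of 300 bases (250 before and 50 after the start) were listed for 28 of the 33 genes, 37 windows in all. Fdps, Fdft1, Sqle, Scd1 and Fads1 had no window in the table. The sterol regulatory core was found in 1 gene, Hmgcs1, where it starts 137 bases before the start of the gene. That is 3.6% of the 28 genes and 2.7% of the 37 windows, against 0.6% of all genes and 0.6% of all promoter windows. Only the exact string was searched, so elements of another spelling were not looked for. A CCAAT box was found in 13 of 13 sterol enzyme genes, 3 of 4 control genes and 8 of 11 fatty acid genes with a window, against 41.1% of all genes. By window the shares were 81.2%, 42.9% and 57.1% in that order, against 37.4% of all windows. A GC box was found in 12 of 13 sterol enzyme genes and 6 of 11 fatty acid genes, against 38.2% of all genes and 35.7% of all windows. The E-box was found in 3 of 13 sterol enzyme genes, 2 of 4 control genes and 1 of 11 fatty acid genes, against 8.1% of all genes and 7.2% of all windows. In Fasn, 2 CCAAT matches on opposite strands overlap, at 62 and 59 bases before the start. Msmo1 and Nsdhl both carry CCAAT and GC boxes. They were picked for a high and a low estimate, so their opposite signs say nothing about letters and direction. These matches describe letters only, and no factor's binding was measured.

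In the mevalonate part, which turns acetyl-CoA into farnesyl diphosphate, 5 of 6 estimates were below 0. Hmgcs1, the cytosolic HMG-CoA synthase, had log2 levels of 15.54 and 15.55 on the deltamethrin arrays, against 15.85 and 15.87 on the vehicle arrays. The groups did not overlap and the arrays of each group lay close together; the log2 fold change was -0.32 ± 0.16 (SE, limma adjusted p = 0.456). Mevalonate kinase, Mvk, had log2 levels of 5.67 and 5.51 with deltamethrin, against 5.95 and 6.44 with vehicle. It had the lowest estimate among the sterol enzymes, -0.61 ± 0.22 (limma adjusted p = 0.305), on a probe set close to 5.60, the median level of all probe sets. Pmvk, which adds the next phosphate, was at -0.32, and Mvd, Idi1 and Fdps, which make and join the isoprene units, lay between -0.16 and 0.03 with overlapping arrays.

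The estimates of the next 5 enzymes, from squalene synthase to the sterol C4-methyl oxidase, were all above 0 (0.05 to 0.48). Msmo1, the C4-methyl oxidase, had log2 levels of 13.66 and 13.42 with deltamethrin, against 13.15 and 12.97 with vehicle. Both deltamethrin arrays were the higher ones, with a log2 fold change of 0.48 ± 0.18 (limma adjusted p = 0.331). Both deltamethrin arrays also lay above the vehicle arrays for Cyp51, the lanosterol demethylase (0.26 ± 0.17), and for Lss, which closes the sterol rings (0.22 ± 0.17). Of all probe sets, 20.3% had both deltamethrin arrays above both vehicle arrays. Sqle, squalene epoxidase, had log2 levels of 13.40 and 13.32 with deltamethrin, against 13.08 and 13.36 with vehicle. Its groups overlapped, with an estimate of 0.14 ± 0.18 (limma adjusted p = 0.794), and Fdft1, squalene synthase, was at 0.05.

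The last 5 enzymes, which remove the C4 carbons and finish the cholesterol ring, had 4 estimates below 0 and a median of -0.40. These stretches of the pathway were drawn after the values were seen, so their contrast is a description. Nsdhl, the C4 decarboxylase, had log2 levels of 14.52 and 14.20 with deltamethrin, against 14.87 and 14.78 with vehicle, an estimate of -0.47 ± 0.19 (limma adjusted p = 0.351). Hsd17b7, the ketoreductase that acts after it, had log2 levels of 12.73 and 12.44 with deltamethrin, against 13.02 on both vehicle arrays, an estimate of -0.44 ± 0.18 (limma adjusted p = 0.365). Dhcr7, which completes cholesterol, had log2 levels of 14.20 and 14.16 with deltamethrin, against 14.54 and 14.62 with vehicle, an estimate of -0.40 ± 0.16 (limma adjusted p = 0.358). In these 3 genes every deltamethrin value lay below every vehicle value, as in 23.5% of all probe sets. The isomerase gene Ebp did likewise, at -0.33 ± 0.17, whereas Sc5d, the desaturase between Ebp and Dhcr7, was at 0.01 ± 0.17.

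**Figure D2:**
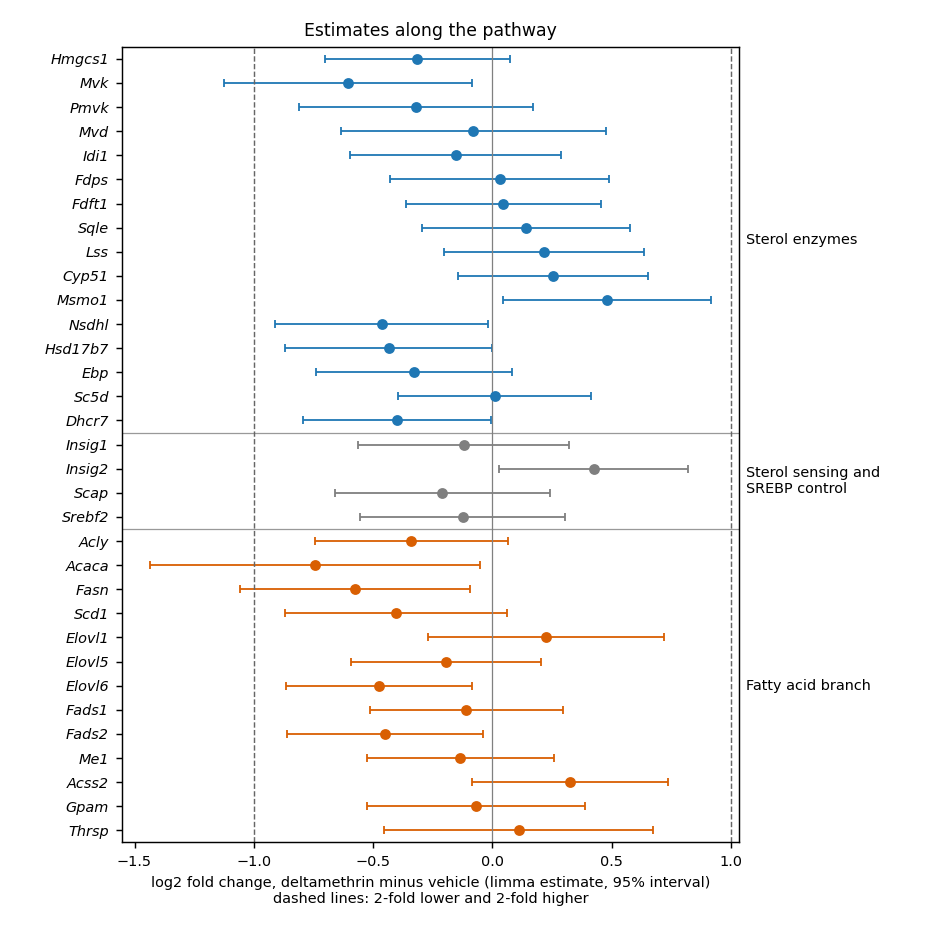
Each point is the limma log2 fold change (deltamethrin minus vehicle) of a gene with its 95% interval, in pathway order. Dashed lines mark a 2-fold change. In the sterol enzymes the estimates from Fdps to Msmo1 lie above 0, with Hmgcs1 to Idi1 and most of Nsdhl to Dhcr7 below it; the intervals of Mvk, Acaca and Fasn pass the lower dashed line.

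Of the 4 sensing and control genes, only Insig2 had arrays that did not overlap between groups, 25% against 43.9% of all probe sets. Insig2, an endoplasmic reticulum anchor of the SCAP and SREBP complex, had log2 levels of 8.43 and 8.54 with deltamethrin, against 8.08 and 8.04 with vehicle. Both deltamethrin arrays were higher, with an estimate of 0.43 ± 0.16 (limma adjusted p = 0.340). Its paralogue Insig1, whose transcript is itself an SREBP target, had log2 levels of 14.03 and 13.73 with deltamethrin, against 14.05 and 13.95 with vehicle. Insig1 was at -0.12 ± 0.18 (limma adjusted p = 0.830), with a 95% interval from -0.56 to 0.32. Scap, the sterol-sensing escort, had log2 levels of 12.12 and 12.28 with deltamethrin, against 12.26 and 12.56 with vehicle. Srebf2, the gene of the SREBP that acts chiefly on the sterol branch, had log2 levels of 15.64 and 15.91 with deltamethrin, against 15.89 and 15.91 with vehicle. The groups overlapped in both, with estimates of -0.21 ± 0.19 for Scap and -0.13 ± 0.18 for Srebf2. How much SREBP was cut and active was not measured.

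In the fatty acid branch 10 of 13 estimates were below 0, and both deltamethrin arrays lay under both vehicle arrays in 8 (61.5%, against 23.5% of all probe sets and 26.5% of bright ones). Acly, Acaca and Fasn make the saturated chain, and none of the 3 passed. Acly, which splits citrate to cytosolic acetyl-CoA, had log2 levels of 14.57 and 14.74 with deltamethrin, against 14.99 and 15.00 with vehicle, an estimate of -0.34 ± 0.17 (limma adjusted p = 0.437). Acaca, the acetyl-CoA carboxylase that makes malonyl-CoA, had log2 levels of 9.60 and 10.10 with deltamethrin, against 10.25 and 10.94 with vehicle. Its estimate of -0.75 ± 0.29, a 1.68-fold lower level, was the lowest of the 33 genes and also the least precise (limma adjusted p = 0.338). Fasn, fatty acid synthase, had log2 levels of 12.17 and 11.98 with deltamethrin, against 12.46 and 12.84 with vehicle, an estimate of -0.58 ± 0.20 (limma adjusted p = 0.297). In none of the 3 did the groups overlap, where 43.9% of all probe sets had groups that did not. The 2 vehicle arrays of Acaca still differed by almost as much as the groups did.

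Among the enzymes that lengthen and desaturate chains, Elovl6 had the smallest p of all 33 genes. Elovl6, the elongase of saturated chains, had log2 levels of 14.82 and 14.81 with deltamethrin, against 15.32 and 15.26 with vehicle, an estimate of -0.48 ± 0.16 (limma adjusted p = 0.289). Fads2, which starts the synthesis of polyunsaturated chains, had log2 levels of 15.38 and 15.50 with deltamethrin, against 15.81 and 15.97 with vehicle, an estimate of -0.45 ± 0.17 (limma adjusted p = 0.331). With a mean-variance trend in the variance model both of these fell (adjusted p = 0.0283 for Elovl6 and 0.0413 for Fads2), in a fit that called 3.63% of all probe sets, 1.38% as lower. Scd1, the stearoyl-CoA desaturase, had log2 levels of 5.01 and 5.11 with deltamethrin, against 5.28 and 5.65 with vehicle, an estimate of -0.41 ± 0.19 (limma adjusted p = 0.420). It was one of 2 dim genes of the 33, with means in both groups under the median level. The other was Thrsp, a lipogenic cofactor of liver and fat, at 0.11 ± 0.23. Elovl5 and Fads1, which act on polyunsaturated chains, were at -0.20 and -0.11, and the elongase Elovl1 at 0.23 with overlapping arrays.

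The remaining 3 genes of the branch were spread. Me1, the cytosolic malic enzyme that yields NADPH, was at -0.14 ± 0.16, and Gpam, the acyltransferase that starts glycerolipid synthesis, at -0.07 ± 0.19. Acss2, which makes acetyl-CoA from acetate, was the only gene of the branch with both deltamethrin arrays above both vehicle arrays. Its estimate was 0.33 ± 0.17 (limma adjusted p = 0.468).

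Set side by side, the fatty acid branch had a median log2 fold change of -0.20 and the sterol enzymes one of -0.12, and the spread of the sterol enzymes reached to both sides of 0. Estimates were below 0 for 76.9% of the fatty acid genes and 56.2% of the sterol enzymes, against 52.9% of all probe sets. The mean log2 level of the 13 fatty acid genes was 11.76 and 11.82 on the deltamethrin arrays, against 11.92 and 12.10 on the vehicle arrays. The mean of the 16 sterol enzymes was 13.03 and 12.93 on the deltamethrin arrays, against 13.04 and 13.16 on the vehicle arrays. The fatty acid mean was thus 0.22 lower and the sterol mean 0.12 lower with deltamethrin, while the 4 control genes differed by -0.01. The order of the branch medians was reversed without deltamethrin replicate 1 and kept without each of the other arrays. The fatty acid median minus the sterol median was -0.08 over all arrays but 0.10 without deltamethrin replicate 1. It was -0.18 without deltamethrin replicate 2, -0.06 without vehicle replicate 1 and -0.07 without vehicle replicate 2. No difference between the branches was shown.

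**Figure D3:**
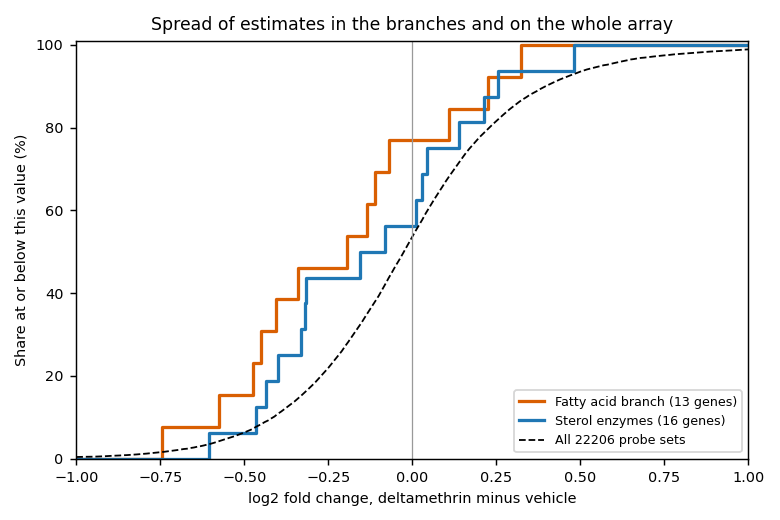
Cumulative share (y axis, %) of genes at or below a given log2 fold change (x axis, deltamethrin minus vehicle) for the fatty acid branch, the sterol enzymes and all 22206 probe sets, cut at -1 and 1. From its lowest gene on, at -0.75, the fatty acid curve lies left of the curve of all probe sets, with 76.9% of its genes below 0; the sterol curve is close to it near 0. Below -0.3 lie 46.2% of fatty acid genes and 43.8% of sterol enzymes, against 17.5% of all probe sets.

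**Figure D4:**
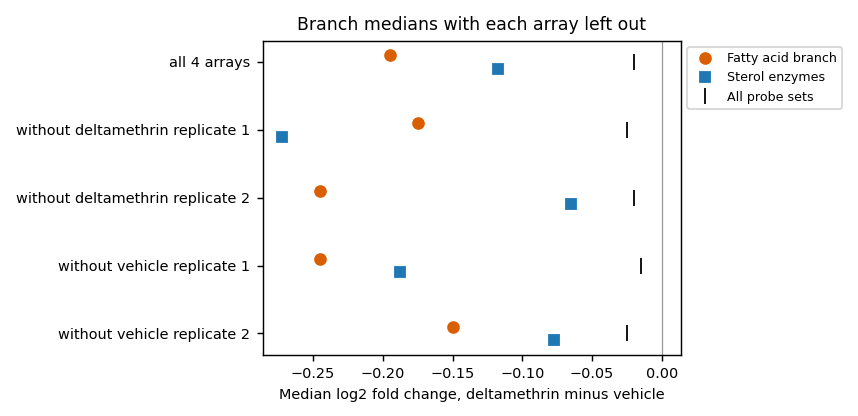
Median log2 fold change (deltamethrin minus vehicle) of the fatty acid branch, the sterol enzymes and all probe sets, with all 4 arrays and with each array left out. The fatty acid median stays between -0.25 and -0.15, while the sterol median moves between -0.27 and -0.065 and passes below the fatty acid median without deltamethrin replicate 1.

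The sterol median moved by more than 1.5 times whichever array was left out. It was -0.27 without deltamethrin replicate 1, -0.065 without deltamethrin replicate 2, -0.19 without vehicle replicate 1 and -0.08 without vehicle replicate 2. The sign of the estimate held in all 4 of these fits for 24 of the 33 genes, 18 lower and 6 higher. These were 11 of 16 sterol enzymes, 2 of 4 control genes and 11 of 13 fatty acid genes. Genes whose groups do not overlap must keep their sign in these fits, which covers 15 of the 18 and 5 of the 6. Such groups were found in 43.9% of all probe sets. Sqle, Fdft1, Fdps, Mvd, Sc5d, Insig1, Srebf2, Gpam and Thrsp did not keep their sign (Sqle reached 0). Under quantile, cyclic loess and median scaling all 33 signs held.

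Of 56 further genes listed for the same pathways, 45 had a probe set matched here, and 1 rose and 0 fell in limma over all probe sets (2.22% called, against 0.432% of all). Their median was 0.01, near the -0.02 of all probe sets. The riser was Fads3, a member of the FADS family that acts on sphingolipid bases. Fads3 had log2 levels of 10.84 and 10.87 with deltamethrin, against 9.41 and 9.57 with vehicle, an estimate of 1.36 ± 0.17 (limma adjusted p = 0.0410), or 2.58-fold. The call was lost without any 1 of the 4 arrays (deltamethrin replicate 1 or 2, vehicle replicate 1 or 2), each of which left 0 calls on the whole array. Hacd1, a dehydratase of the elongation cycle, had log2 levels of 14.49 and 14.23 with deltamethrin, against 15.54 and 15.48 with vehicle. Its estimate was -1.15 ± 0.18 (limma adjusted p = 0.0740). Hacd1 fell when probe sets at or below the 40th percentile of level were left out, or a mean-variance trend was used. Scd3, a close paralogue of Scd1, was at -0.74 ± 0.19, and whether the probes tell the Scd paralogues apart was not tested.

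The other genes of small p among these were Mylip, the ubiquitin ligase that degrades lipoprotein receptors (-0.62 ± 0.20), the mitochondrial malic enzyme Me2 (-0.50 ± 0.17) and Coq2, which attaches the isoprenoid tail of ubiquinone (0.55 ± 0.20). None of the 3 passed (limma adjusted p = 0.265 for Mylip, 0.299 for Me2 and 0.323 for Coq2). By list, the other isoprenoid and sterol genes had a median of 0.05 over 11 genes, and the other SREBP and LXR control genes 0.07 over 7. The other fatty acid and acyl-chain genes were at -0.03 over 23 genes, and the 4 further dehydrogenase genes Pgd, Idh1, Me2 and Me3 at -0.06. The downward lean of the 13 fatty acid genes was thus not seen in the median of their wider family.

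Proliferation genes had lower estimates with deltamethrin too, though 8 of 9 did not pass. Their mean log2 level over 9 measured genes was 13.54 and 13.56 with deltamethrin, against 14.16 and 14.21 with vehicle, with 9 of 9 estimates below 0 (against 52.9% of all probe sets). Of them 1, Rrm2 of nucleotide synthesis, fell (11.1%, against 0.0766% of all probe sets). The Rrm2 call was lost with the replicate number as a block and without moderation, fits that called 0 probe sets. The mean of 11 sympathoadrenal and neuronal markers of the line was 11.22 and 11.03 with deltamethrin, against 11.29 and 11.40 with vehicle, 0.22 lower as was that of the fatty acid branch. In 7 of the 11 both deltamethrin arrays lay below both vehicle arrays (63.6%, against 23.5% of all probe sets). Of the 11, 0 were called, against 0.432% of all probe sets. At an unadjusted p below 0.05, 4 were lower (36.4%, against 6.84% of all) and 1 higher (9.09%, against 6.83%). Those were the transcription factor genes Isl1 (-1.14) and Phox2a (-0.77), the receptor Ret (-0.66), the granule protein Chga (-0.50) and, higher, tyrosine hydroxylase Th (0.90). The part of proliferation and of these markers in the values of the lipid genes was not tested.

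**Figure D5:**
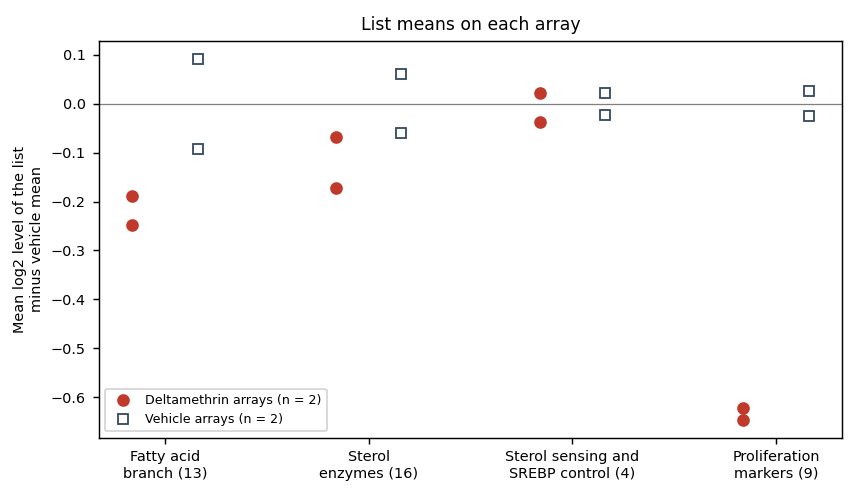
Mean log2 level of each list on each array, minus the mean of the 2 vehicle arrays (y axis); circles are deltamethrin arrays, squares vehicle arrays, and the number of genes stands under each list. The proliferation mean is 0.63 lower with deltamethrin, against 0.22 for the fatty acid branch and 0.12 for the sterol enzymes.

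As a check of the cells, 9 of 11 measured sympathoadrenal and neuronal markers were bright, among them Phox2a, Hand2, Ret and Stmn2, while Ddc and Nefm were dim. Markers of astrocytes, fibroblasts, oligodendrocytes and Schwann cells were all dim (9 of 9 measured). Of the other sets, Ptprc for macrophages, Alb and Serpina1a for hepatocytes, and Lpl for adipocytes reached the median level in at least 1 group, with 0 of these 4 called. The table gives no detection call, so a dim probe set cannot be called absent. The arrays' medians lay between 5.61 and 5.63, and the difference between the 2 arrays of a group had an SD of 0.37 over probe sets for deltamethrin and 0.33 for vehicle. The labels used here name no batch, and a batch effect and a treatment effect cannot be told apart.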

How the data were processed

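The values are on the log2 scale, 1 per probe set and array, and the authors made them with Transcriptome Analysis Console and RMA, per the submitters' processing notes. Version and genome build: not given in the sources used here. A total of 22206 probe sets were deposited, all of them tested, of which 19572 had 1 gene symbol in the platform annotation, 0 had several and 2634 were unnamed here. Deltamethrin minus vehicle was fitted with limma 3.58.1 in R 4.3.3 (lmFit, eBayes, no block), two-sided, with Benjamini-Hochberg adjustment over all probe sets and calls at an adjusted p below 0.05. The fit had 2 residual and 4.43 prior degrees of freedom, and the median SE was 0.19; the number of arrays limits the precision. Arrays were grouped by their titles. Values on every array were given for 17 members, the 12 of smallest p and 5 more from a list fixed by name. Further pathway genes were named where called, or among the 6 of smallest p. The members, lists and tests were chosen with earlier results of these data known. Alternatives were a replicate block, a filter dropping probe sets at or below the 40th percentile of level, and 3 scalings. Further alternatives were other variance models, an adjusted p below 0.10 and leaving out each array. The fit was tested on simulated data. Promoter windows came from RefSeq (GRCm38.p6), independently of the authors' files. No protein sequences were used here.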

Additional observations from a re-analysis of the deposited data

How the results depend on the processing

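No member was called in any fit except with a mean-variance trend, which called 2 (Elovl6 and Fads2, both lower). The count of called probe sets, 96, became 806 with that trend, 312 without probe sets at or below the 40th percentile, 233 at an adjusted p below 0.10, and 0 without moderation. Leaving out 1 array, the lone array being taken to vary as the other group does, gave 0 each time (1631 to 2779 at an unadjusted p below 0.05). For the further pathway genes the count of 1 became 2 with the trend, with the filter and at an adjusted p below 0.10, and 0 without moderation and without any 1 array. The sterol median of -0.12 ranged from -0.27 to -0.065 when an array was left out; the fatty acid median of -0.20 ranged from -0.25 to -0.15. The filter removed Thrsp and gave a fatty acid median of -0.27. A gene's probe sets could not be averaged to any effect, since each member had 1. With the replicate number as a block, 0 probe sets, 0 members and 0 further pathway genes were called (3221 probe sets at an unadjusted p below 0.05). The labels give only a number, and deviations of same-numbered arrays correlated at 0.13 across probe sets. The cause of these shifts was not tested. With 2 arrays per group, the median half-width of a 95% interval over the 33 genes was 0.43 on the log2 scale.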
